A study of Rattus norvegicus with 4 samples.

Results

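The genes described here are 9 genes of B lymphocytes and of the chemokine axis that guides them, chosen by symbol from a list of B cell genes with Cxcl13, its receptor gene Cxcr5 and the plasma cell gene Mzb1. Of the 22050 genes listed in the files, 8 of the 9 had a row under their symbol, and all 8 were among the 15709 genes tested. The exception was Cd79a, but the RefSeq gene table gives Cd79al as a synonym of Cd79a, and a row of that name (ENSRNOG00000049925) is described beside the members without being counted as one. Lung mRNA came from SD rats killed on day 28. Treated rats had received bleomycin once into the trachea at 5 mg/kg in 0.2 mL, and controls the same volume of saline. Each group had 2 libraries from 2 rats, with no other treatment or allele in the labels. Bleomycin, a DNA-breaking chemotherapy drug, is widely used to produce lung fibrosis in rodents.

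B cells recognise antigen through a membrane antibody that signals through the paired chains encoded by Cd79a and Cd79b, and they are drawn into lymphoid follicles by CXCL13, a chemokine sensed by the receptor CXCR5. In secondary lymphoid tissue CXCL13 is made mainly by stromal cells, including follicular dendritic cells, and it is also made where lymphoid aggregates form outside lymphoid organs. Rat lungs can hold such aggregates along the airways, called bronchus-associated lymphoid tissue. After activation a B cell can become an antibody-secreting plasma cell, which switches off much of the B cell programme and expands its secretory machinery.

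Summed gene counts lay between 34683699 and 44381111 per library, so 3 counts corresponded to between 0.0681 and 0.0868 CPM, the unit of level used below (counts relative to library size, scaled by the trimmed mean of M values, TMM). The surfactant gene Sftpc had at least 6822 CPM in every library, and of 9 lung markers tested 4 fell after bleomycin, among them Scgb1a1, Vwf and Hopx of club cells, endothelium and alveolar epithelium. The endothelial marker Cldn5 had no count in bleomycin replicate 1, against 537 and 347 counts in the controls and 758 in bleomycin replicate 2. Control replicate 1 carried more heart muscle transcripts than control replicate 2, at 226 against 40.7 CPM summed over 10 heart genes, with 127.6 and 76.8 CPM in the bleomycin libraries. Nppa, a gene of atrial muscle, was at 0 in control replicate 2 and bleomycin replicate 2. Thymus transcripts stayed low, with Rag1 at most 0.203 CPM in a library and Rag2 at 0 in 3 of the 4, and Cd1d1, Prss16 and Themis, the thymus genes with the smallest p, had edgeR adjusted p-values of 0.0678, 0.115 and 0.264. Bleomycin replicate 1 often lay farther from the controls than bleomycin replicate 2, as the members below show.

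The promoters of Cxcl13, Cd79a and Bank1 are shown because Cxcl13 was the member that rose, Bank1 the member with the largest fall, and Cd79a the gene whose RefSeq synonym names a row that fell. The RefSeq promoter table of build GRCr8 held 4 of the 9 members, namely Cd79a, Bank1, Cd22 and Cxcl13. Each sequence is the 250 bases before the annotated start, 5′ to 3′ on the gene's strand, and capitals mark motif matches.
Cxcl13, chr14:13917921-13918170, minus strand: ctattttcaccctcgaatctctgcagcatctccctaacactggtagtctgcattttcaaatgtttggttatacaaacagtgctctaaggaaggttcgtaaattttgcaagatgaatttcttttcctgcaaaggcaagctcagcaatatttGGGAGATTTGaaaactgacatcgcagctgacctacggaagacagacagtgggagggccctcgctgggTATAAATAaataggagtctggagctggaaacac
Cd79a, chr1:89621210-89621459, plus strand: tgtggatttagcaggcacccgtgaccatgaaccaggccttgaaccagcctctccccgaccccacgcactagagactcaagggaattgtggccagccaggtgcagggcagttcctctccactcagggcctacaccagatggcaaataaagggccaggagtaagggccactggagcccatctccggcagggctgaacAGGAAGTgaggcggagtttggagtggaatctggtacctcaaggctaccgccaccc
Bank1, chr2:227473716-227473965, minus strand: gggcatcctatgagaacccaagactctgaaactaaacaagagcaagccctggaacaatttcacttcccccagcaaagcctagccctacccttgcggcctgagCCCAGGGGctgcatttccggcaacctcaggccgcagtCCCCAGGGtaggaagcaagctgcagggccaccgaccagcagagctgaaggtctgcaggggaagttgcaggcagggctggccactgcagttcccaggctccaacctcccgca

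The motifs were searched on both strands in all 33469 promoters of the table over the same 250 bases, and the matches printed do not overlap each other. In Cxcl13 the letters GGGAGATTTG lay 100 to 91 bases before the start. In the mouse gene this is known as a site bound by the NF-kappaB subunits RelB and p52. The letters searched were taken from the rat Cxcl13 promoter at this position, so the match there was fixed in advance. The same letters occurred in 0.0687% of all promoters, a share that includes Cxcl13 itself. A TATA-type run, TATAAATA, searched with the sequence in view, lay 33 to 26 bases before the Cxcl13 start and occurred in 1.63% of promoters. In Cd79a the letters AGGAAGT, which resemble the site of the blood cell transcription factor PU.1, lay 55 to 49 bases before the start and occurred in 7.08% of promoters. The core CCCNNGGG of the site of the B cell factor EBF1, which reads the same on both strands and was also searched with the sequences in view, occurred at 2 places in Bank1, 148 to 141 and 111 to 104 bases before the start. It occurred in 10.8% of promoters and not in the windows of Cd79a, Cd22 or Cxcl13. The octamer ATGCAAAT, held by 1.56% of promoters, was found in none of the 4 windows. Cd22 had no match to any of the 5 motifs, which says only that these letters are not in its window. Binding was not measured.

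The comparison of bleomycin-treated with saline-treated lungs asked how transcripts of B cells and of their attracting chemokine differed at that time. Bank1, Cd22 and Cd79b fell in bleomycin-treated lungs, by 10.4-fold, 2.24-fold and 2.20-fold. Cxcl13 rose 5.30-fold. Its receptor gene Cxcr5, the B cell genes Ms4a1 and Pax5, and the plasma cell gene Mzb1 did not pass the test. Thus 1 of 8 members rose, where 9.27% of all tested genes were called higher, and 3 of 8 fell, where 7.44% were called lower, by edgeR's quasi-likelihood test at a Benjamini-Hochberg adjusted p under 0.05. Both bleomycin libraries lay below both controls for 6 of 8 members, against 33.4% of all tested genes, and above both for 1 of 8, against 35.1%. The median log2 change of the 8 was -1.15, against 0.013 for all tested genes. In both directions together 4 of 8 members were called, against 16.7% of all tested genes. The calls rested on both controls. Without control replicate 1, 0 of 8 members passed by edgeR (5 at an unadjusted p under 0.05) and 0.13% of all genes did, and without control replicate 2, 0 of 8 passed (4 unadjusted) and 0.218% of all genes did. Without bleomycin replicate 1, 4 of 8 passed against 15% of all genes, and without bleomycin replicate 2, 5 of 8 against 32%. DESeq2 called 5 of 8 against 23.7%. In whole-lung RNA, fewer cells of a type and less RNA per cell cannot be told apart.

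**Figure D1:**
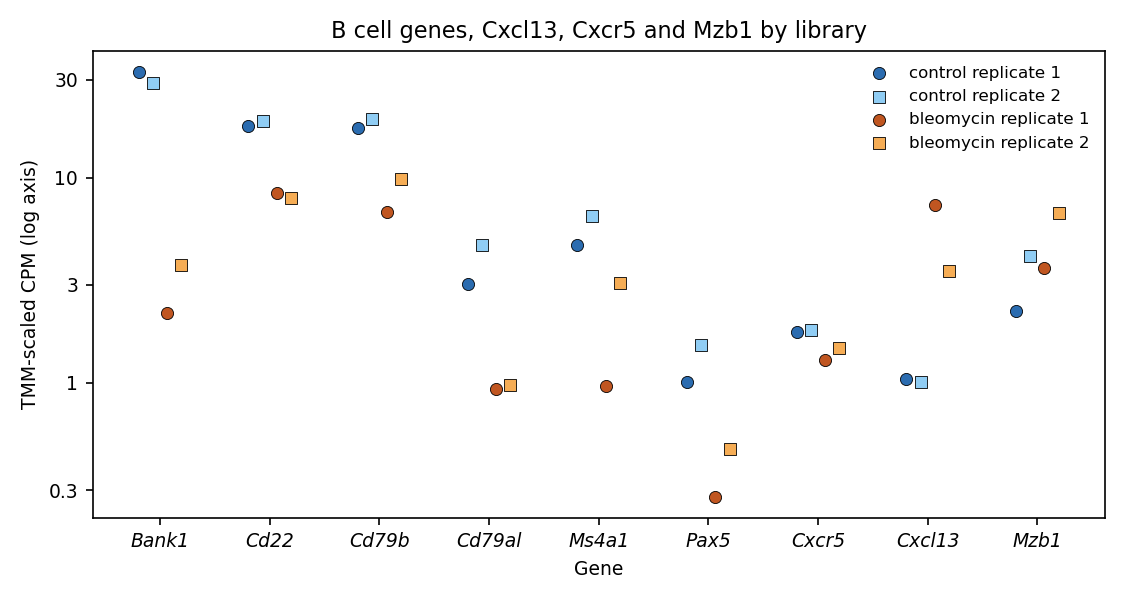
Each point is the level of a gene in 1 library, in TMM-scaled CPM on a log axis, for the 8 members with a row and for Cd79al. Bank1 showed the widest gap between groups downward, from 29.1 and 32.8 CPM in the controls to 2.18 and 3.77 CPM after bleomycin, and Cxcl13 was the member above both controls in both bleomycin libraries.

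Of the genes of the B cell receptor, Cd79b (ENSRNOG00000011917), which encodes the Ig-beta signalling chain, had 17.4 and 19.3 CPM in control replicates 1 and 2. It had 6.79 and 9.91 CPM in bleomycin replicates 1 and 2. The groups did not overlap, and the log2 change was -1.14 ± 0.22 (SE; edgeR adjusted p = 0.0321). The row Cd79al, named as a RefSeq synonym of the gene of the partner chain Ig-alpha, had 3.04 and 4.67 CPM in the controls and 0.937 and 0.975 CPM after bleomycin. It fell 4.03-fold, with a log2 change of -2.01 ± 0.35 (edgeR adjusted p = 0.0266). Whether its reads were shared with a second copy in the build of the files was not tested, and its level is uncertain to that extent. Cd79b and the Cd79al row were thus each lower in both bleomycin libraries than in both controls. Whether Cd79al in the files is the same gene as Cd79a was not tested, and Cd79a itself has no value here.

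Cd22 (ENSRNOG00000024000) encodes a sialic acid-binding coreceptor that dampens B cell receptor signalling. Its level was 17.8 and 18.9 CPM in the controls and 8.43 and 7.94 CPM after bleomycin, the closest agreement between bleomycin replicates among the members that fell. The log2 change was -1.17 ± 0.14 (edgeR adjusted p = 0.0155). Leaving out either bleomycin library kept the log2 change between -1.21 and -1.14.

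Bank1 (ENSRNOG00000032247) encodes a B cell scaffold protein that links the receptor to calcium signalling. Its counts were 1133 and 1270 in the controls against 86 and 166 in bleomycin replicates 1 and 2. As CPM these were 32.8 and 29.1 against 2.18 and 3.77, a log2 change of -3.37 ± 0.29 (edgeR adjusted p = 0.0109). The fold fall was 8.23 without bleomycin replicate 1 and 14.3 without bleomycin replicate 2. Without control replicate 1 the edgeR adjusted p was 0.0628, and without control replicate 2 it was 0.0614.

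Bank1 was also set against the other B cell genes within each library, using FPKM, the deposited values scaled for gene length and library depth. The ratio of Bank1 to Cd22 FPKM was 2.98 and 2.50 in the controls and 0.42 and 0.772 after bleomycin. The ratio of Bank1 to Cd79b FPKM was 1.09 and 0.869 in the controls and 0.186 and 0.220 after bleomycin. Bank1 was therefore lower relative to both of these B cell genes in both treated lungs. In contrast, the ratio of Cd79b to Cd22 FPKM overlapped between groups, at 2.74 and 2.87 in the controls and 2.26 and 3.51 after bleomycin. These ratios are descriptions without a test, since the smallest 2-sided exact permutation p that 2 rats against 2 can give is 0.333.

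Ms4a1 (ENSRNOG00000020945) encodes CD20, the surface protein of mature B cells targeted by rituximab in patients. It had 4.69 and 6.51 CPM in the controls and 0.962 and 3.06 CPM in bleomycin replicates 1 and 2. All bleomycin values were below all control values, but the 2 treated rats lay further apart, on a log scale, than the 2 controls. The log2 change of -1.47 ± 0.57 did not pass (edgeR adjusted p = 0.133). It was -0.88 without bleomycin replicate 1 and -2.55 without bleomycin replicate 2, where it passed (edgeR adjusted p = 0.0124). By DESeq2 Ms4a1 passed, with an adjusted p of 0.0458.

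Pax5 (ENSRNOG00000024729), the transcription factor gene that maintains B cell identity, was the scarcest member, with 35 and 67 counts in the controls and 11 and 21 after bleomycin. In CPM this was 1.01 and 1.54 against 0.279 and 0.476. The groups did not overlap, and the log2 change of -1.74 ± 0.53 missed the threshold (edgeR adjusted p = 0.0814). Its unadjusted p was 0.0202.

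Cxcl13 (ENSRNOG00000024899), the gene of the follicle-forming chemokine, had 36 and 44 counts in the controls and 292 and 154 counts in bleomycin replicates 1 and 2. In CPM this was 1.04 and 1.01 against 7.39 and 3.49. The controls were nearly equal, both treated rats were above them, and replicate 1 was the higher of the treated pair. The log2 change was 2.40 ± 0.44 (edgeR adjusted p = 0.0288). The rise was 3.39-fold without bleomycin replicate 1 (edgeR adjusted p = 0.0394) and 7.12-fold without bleomycin replicate 2. Without control replicate 1 the fold was 5.34 with an edgeR adjusted p of 0.147, and without control replicate 2 it was 5.21 with 0.145. Follicular dendritic cells could not be followed through Fdcsp, a gene of these cells, which had no count in any library.

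Cxcr5 (ENSRNOG00000012430), the receptor gene for this chemokine on B cells and follicular helper T cells, had 1.77 and 1.81 CPM in the controls. It had 1.29 and 1.47 CPM after bleomycin. Although the values did not overlap, the log2 change was -0.37 ± 0.34, about the size of its error (edgeR adjusted p = 0.47). The ratio of Cxcl13 to Cxcr5 FPKM was 0.771 and 0.736 in the controls and 7.53 and 3.11 in bleomycin replicates 1 and 2. Chemokine transcripts thus exceeded receptor transcripts per unit length in both treated lungs and were fewer in both controls.

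Mzb1 (ENSRNOG00000022009) encodes an endoplasmic reticulum protein of marginal zone B cells and plasma cells that assists antibody assembly. It had 2.23 and 4.15 CPM in the controls and 3.65 and 6.71 CPM after bleomycin. Groups overlapped, and the log2 change of 0.70 ± 0.44 did not pass (edgeR adjusted p = 0.312). Leaving out 1 library at a time gave log2 changes from 0.17 to 1.22. The ratio of Mzb1 to Ms4a1 FPKM, plasma cell against B cell transcript, was 0.636 and 0.851 in the controls and 5.05 and 2.93 in bleomycin replicates 1 and 2. The same ratio for Jchain, the gene of the chain that joins secreted antibodies, was 34.9 and 26.4 in the controls and 143.1 and 102.1 after bleomycin. In both ratios every treated lung lay above every control, while Mzb1 and Jchain themselves overlapped between groups.

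Per unit length, the members ranked differently in the treated groups. In the controls Bank1, at 15.6 and 13.93 FPKM, and Cd79b, at 14.34 and 16.03 FPKM, lay highest and overlapped each other. Cd22 followed at 5.23 and 5.58 FPKM, overlapping Ms4a1 at 3.79 and 5.3 FPKM. Mzb1 at 2.41 and 4.51 FPKM overlapped Ms4a1, and Cxcr5, Pax5 and Cxcl13 lay between 0.86 and 1.31 FPKM. After bleomycin Cd79b at 5.66 and 8.15 FPKM, Mzb1 at 3.99 and 7.23 FPKM and Cxcl13 at 6.55 and 3.05 FPKM overlapped at the top. Bank1 had 1.05 and 1.79 FPKM there, within the range of Ms4a1 at 0.79 and 2.47 FPKM. Cd22 had 2.5 and 2.32 FPKM after bleomycin. Cxcl13, among the lowest members in the controls, was the highest in bleomycin replicate 1. In bleomycin replicate 2 it lay below Cd79b and Mzb1 and nearer to Ms4a1 and Cd22.

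Of 8 general leukocyte genes tested, 1 rose (Cd53, 1.64-fold) and 1 fell, with a median log2 change of -0.20. Of 12 dendritic cell genes, 3 rose (Cd83, Clec10a and Fscn1) and 1 fell. The B cell genes were next set against Ptprc, the gene of CD45, which all leukocytes carry. Ptprc had 266 and 278 CPM in the controls and 182 and 213 CPM after bleomycin, a log2 change of -0.46 ± 0.12 that did not pass (edgeR adjusted p = 0.0623). The ratio of Bank1 to Ptprc CPM was 7.68-fold lower after bleomycin, from 0.123 and 0.105 to 0.012 and 0.0177. For Cd79b and for Cd22 it was 1.61-fold lower, and for Ms4a1 2.09-fold lower, each with no overlap between groups. The ratio of Cxcr5 to Ptprc CPM was 0.00664 and 0.00651 in the controls and 0.00712 and 0.00692 after bleomycin. The ratio to Ptprc was 2.22-fold higher after bleomycin for Mzb1, 1.805-fold higher for Jchain and 1.58-fold higher for Ighm, also with no overlap. Against CD45 transcripts, then, Bank1, Cd79b, Cd22 and Ms4a1 were lower in both treated lungs, and Mzb1, Jchain and Ighm were higher. As CPM, however, Mzb1, Jchain and Ighm each overlapped between groups. In bleomycin replicate 1, Jchain at 53.8 CPM and Ighm at 226 CPM lay below both controls, as Ptprc did. Cxcr5 was only 1.07-fold higher by its ratio to Ptprc, and Cxcr5 and Ptprc were each lower in both treated lungs. These ratios are again descriptions without a test, and ratios to other leukocyte genes were not computed. As single genes, 68.5% of all those tested did not overlap between groups.

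The wider list of 25 B cell genes had 24 tested, of which 6 fell and 3 rose, with a median log2 change of -0.59. The list holds 5 of the tested members, so its count includes theirs. Among the 19 tested genes of the list outside the members, 3 fell and 3 rose, with a median of -0.17. Among those that fell were the complement receptor gene Cr2 and the transcription factor gene Spib. Cr2, expressed by B cells and follicular dendritic cells, had 5.56 and 5.52 CPM in the controls against 2.48 and 2.29 CPM. Spib, which lymphoid and some epithelial cells express, fell 3.36-fold, close to the threshold (edgeR adjusted p = 0.0495). Leaving out each library in turn gave log2 changes from -2.50 to -1.27, against -1.75 with all libraries. Cr2, Spib, Swap70 and Cd72 were chosen for naming after their values were seen.

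The genes of the list that rose were Blnk, Swap70 and Cd72. Blnk, an adaptor of B cell receptor signalling that macrophages also express, had 6.43 and 7.33 CPM in the controls and 17.1 and 17.7 CPM after bleomycin (edgeR adjusted p = 0.0144). Swap70, an actin-binding signalling protein gene, rose 1.65-fold. Cd72, a B cell coreceptor gene also expressed in macrophages, rose 2.37-fold, just inside the threshold (edgeR adjusted p = 0.0489), and missed it when bleomycin replicate 1 (0.0668) or replicate 2 (0.0797) was left out. Macrophage markers moved at the same time. Of 13 tested, 6 rose, including the complement genes C1qa, C1qb and C1qc, and C1qa went from 32.0 and 31.8 CPM to 182 and 141 CPM. The summed level of the macrophage list was 15851 to 15952 CPM in the controls and 11426 to 16950 CPM after bleomycin. Most of that sum was Lyz2, at 14749 and 14550 CPM in the controls and 9464 and 15229 CPM in bleomycin replicates 1 and 2. By gene, both treated lungs lay above both controls for 8 of the 13, against 35.1% of all tested genes. They lay below both for 0 of the 13, against 33.4%. The part of macrophages in the rise of Blnk and Cd72 was not tested. Of 17 tested genes of B cell receptor signalling, 3 rose and 2 fell, with a median log2 change of 0.05. More of them rose without bleomycin replicate 2 and fewer fell without bleomycin replicate 1, as over all tested genes. Besides Blnk and Cd22 the list held Fcgr2b, the inhibitory Fc receptor gene that B cells and macrophages share, which rose 3.86-fold (edgeR adjusted p = 0.00961).

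**Figure D2:**
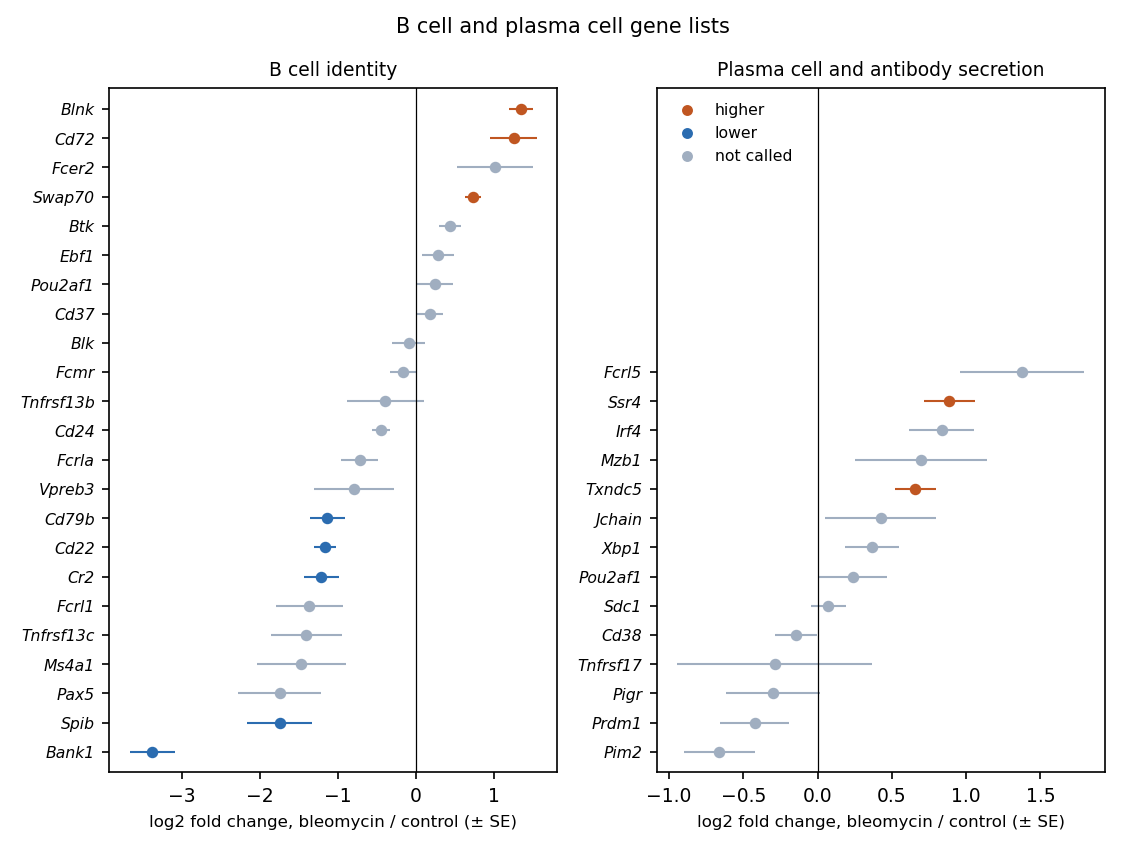
Points are log2 fold changes of bleomycin over control with SE bars for tested genes of the B cell list (left) and the plasma cell list (right), coloured by the edgeR call. The B cell list spans from Bank1 at -3.37 to Blnk at 1.34, while in the plasma cell list Ssr4 and Txndc5 were called.

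Among plasma cell and antibody secretion genes, Ssr4 and Txndc5 rose after bleomycin. Of 14 tested, 2 rose, where 9.27% of all tested genes were called higher, and 12 did not pass. The median log2 change was 0.30. More of the list rose when either bleomycin library was left out. Over all tested genes, more rose without bleomycin replicate 2 and fewer without bleomycin replicate 1. The risers were Ssr4, a subunit gene of the translocon complex, at 1.85-fold, and Txndc5, an endoplasmic reticulum disulfide isomerase gene, at 1.58-fold. Many secretory cells besides plasma cells express both. Irf4, a transcription factor gene needed by plasma cells, came next, with 6.92 and 8.98 CPM in the controls and 16.1 and 12.3 CPM after bleomycin (edgeR adjusted p = 0.0608). Jchain had 63.8 and 67.1 CPM in the controls and 53.8 and 121.9 CPM in bleomycin replicates 1 and 2, on either side of the controls (edgeR adjusted p = 0.458). Other genes of the list pointed down without passing. Their log2 changes were -0.66 for Pim2, -0.42 for Prdm1, -0.30 for Pigr, -0.29 for Tnfrsf17 and -0.15 for Cd38. Of 17 immunoglobulin gene symbols looked for, 2 had a row and 1 was tested. This was Ighm, the heavy chain gene of IgM, at 233 and 290 CPM in the controls and 226 and 382 CPM after bleomycin (edgeR adjusted p = 0.601).

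Hmmr and Elf5 of the germinal centre list rose, and of the list of T cells that help B cells Maf, Icos and Pdcd1 rose and Sh2d1a fell. The helper cytokine gene Il21 had no count in any library. Of 11 tested genes of the germinal centre list, 2 rose, where 9.27% of all tested genes were called higher, and the median log2 change was 0.26. The risers were Hmmr, a mitotic spindle gene, at 3.81-fold, and Elf5, a transcription factor gene of epithelium, at 1.70-fold. Both treated lungs lay above both controls for 5 of the 11, against 35.1% of all tested genes, and below both for 3, against 33.4%. Among those 3 were Rgs13 and Mef2b, at log2 changes of -1.19 and -0.90 that did not pass. Elf5 missed the threshold without bleomycin replicate 1 (edgeR adjusted p = 0.0798). Ung, the uracil glycosylase gene of DNA repair, did not pass at a log2 change of 0.64 ± 0.16 (edgeR adjusted p = 0.0523). Of 9 tested follicular helper T cell genes, 3 rose and 1 fell, and more fell without bleomycin replicate 2, as over all tested genes. Maf, a transcription factor gene of these cells and of macrophages, rose 3.32-fold. The costimulatory receptor gene Icos rose 4.26-fold, from 2.17 and 2.45 CPM to 12.8 and 6.92 CPM (edgeR adjusted p = 0.0253). Sh2d1a, which encodes the adaptor SAP needed for T cell help to B cells, fell 3.36-fold (edgeR adjusted p = 0.0364), and its edgeR adjusted p was 0.0561 without bleomycin replicate 1. Pdcd1, the gene of PD-1, had no control count and 108 and 32 counts after bleomycin. Taking 3 counts summed over the 2 controls as the limit, 0.0384 CPM, the bleomycin mean of 1.73 CPM was 45.1-fold above it. The bleomycin replicates behind that mean were unequal, at 2.74 and 0.726 CPM in replicates 1 and 2. Pdcd1 missed the threshold without bleomycin replicate 1. T cell markers held 1 higher gene (Cd4, which rat macrophages also carry) and 2 lower genes (Tcf7 and Cd247) of 14 tested. Fewer were lower without bleomycin replicate 1, as over all tested genes. The summed level of the T cell markers was 191 to 220 CPM in the controls and 220 to 233 CPM after bleomycin. Within that sum Cd4 alone went from 60.3 and 71.3 CPM to 104 and 107 CPM. Both treated lungs lay below both controls for 7 of the 14 markers, against 33.4% of all tested genes. They lay above both for 3, against 35.1%. The T cell receptor chain gene Cd3e did not pass (log2 change -0.42 ± 0.18, edgeR adjusted p = 0.169).

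Among 12 chemokine and receptor genes of lymphoid tissue, Cxcl13, Ccl21 and Cxcl12 rose and Ackr4 fell. Ccl21, which draws T cells and dendritic cells through CCR7, went from 92.9 and 108.6 to 274 and 227 CPM (edgeR adjusted p = 0.0142). In mice this chemokine has near-identical gene copies, and whether reads were shared with a copy was not tested. Cxcl12, a broadly acting stromal chemokine gene, rose 1.73-fold. Ackr4, the scavenging receptor gene for the CCR7 ligands, fell 8.92-fold, from 49.8 and 44.6 to 5.47 and 5.10 CPM (edgeR adjusted p = 0.00565), and it also passed without either control. The receptor genes Cxcr5 and Ccr7 and the chemokine gene Ccl19 did not pass, with log2 changes of -0.37 ± 0.34, -0.17 ± 0.17 and 0.34 ± 0.29.

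Lymphotoxin signalling through the RelB arm of NF-kappaB is known to induce Cxcl13 in lymphoid stroma. Of 16 tested genes of the lymphotoxin and B cell survival list, 4 rose and 12 did not pass, with a median log2 change of 0.39. Relb rose 1.71-fold, from 11.7 and 11.2 to 20.3 and 18.8 CPM (edgeR adjusted p = 0.0259). Il6, the interleukin gene that aids plasma cell differentiation, rose from 2 and 5 counts to 86 and 56 counts (edgeR adjusted p = 0.0203), and Tnfrsf11a and Tnfrsf1a rose 2.19-fold and 1.46-fold. The ligand gene Ltb, which B cells express, had 10.1 and 11.1 CPM in the controls and 11.4 and 13.1 CPM after bleomycin, and did not pass (edgeR adjusted p = 0.401). Tnfsf13b, the gene of the B cell survival factor BAFF, had a log2 change of 0.22 ± 0.20. Of 13 tested genes of follicular dendritic cells and high endothelial venules, 3 rose and 2 fell. The risers were Fcgr2b, the adhesion molecule gene Vcam1 at 2.41-fold and Sele, the gene of E-selectin, at 5.20-fold. The genes that fell were Cr2, by 2.32-fold, and Pdpn, by 1.46-fold (edgeR adjusted p = 0.0297 and 0.0486). More of the list rose and fell without bleomycin replicate 2, and fewer fell without bleomycin replicate 1, as over all tested genes.

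**Figure D3:**
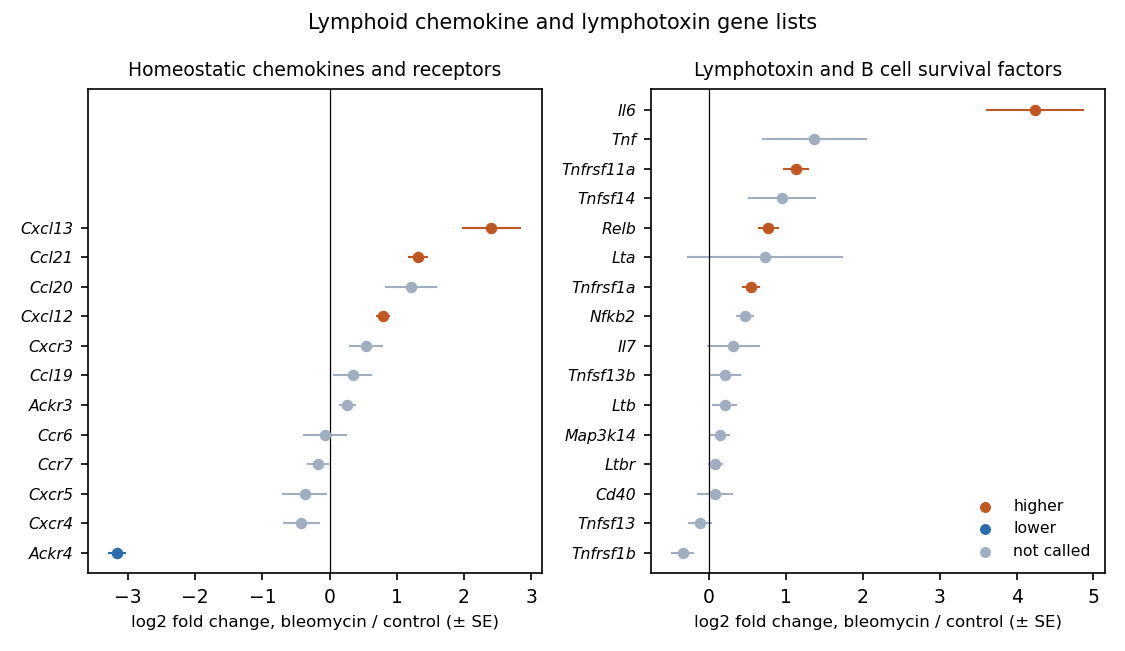
Points are log2 fold changes of bleomycin over control with SE bars for the tested genes of 2 lists, lymphoid chemokines with their receptors (left) and lymphotoxin with B cell survival factors (right), coloured by the edgeR call. Cxcl13 stood at 2.40 and Cxcr5 at -0.37 in the same panel, with Ackr4 lowest at -3.16.

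The genes whose pattern over the 4 libraries lay nearest to Cxcl13, by Euclidean distance of log2 CPM centred on each gene's mean, were Cldn4, Kif22, Tnip3, Tpx2 and Ppp1r3c. Their distances were 0.064 to 0.0985 log2 units among 12501 candidates, and each was higher in bleomycin replicate 1 than in replicate 2, as Cxcl13 was. Tnip3, for instance, had 1.91 and 1.81 CPM in the controls and 12.1 and 6.06 CPM after bleomycin. Nearest to the mean pattern of the 5 tested B cell members (Ms4a1, Cd79b, Pax5, Bank1 and Cd22) were Atp2c2, Tmod1, Clec2l, Cavin2 and Pbld1, at distances of 0.0556 to 0.141. Atp2c2 had 32.6 and 38.4 CPM in the controls and 9.57 and 14.6 CPM after bleomycin. With 4 libraries many genes share any such pattern.

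**Figure D4:**
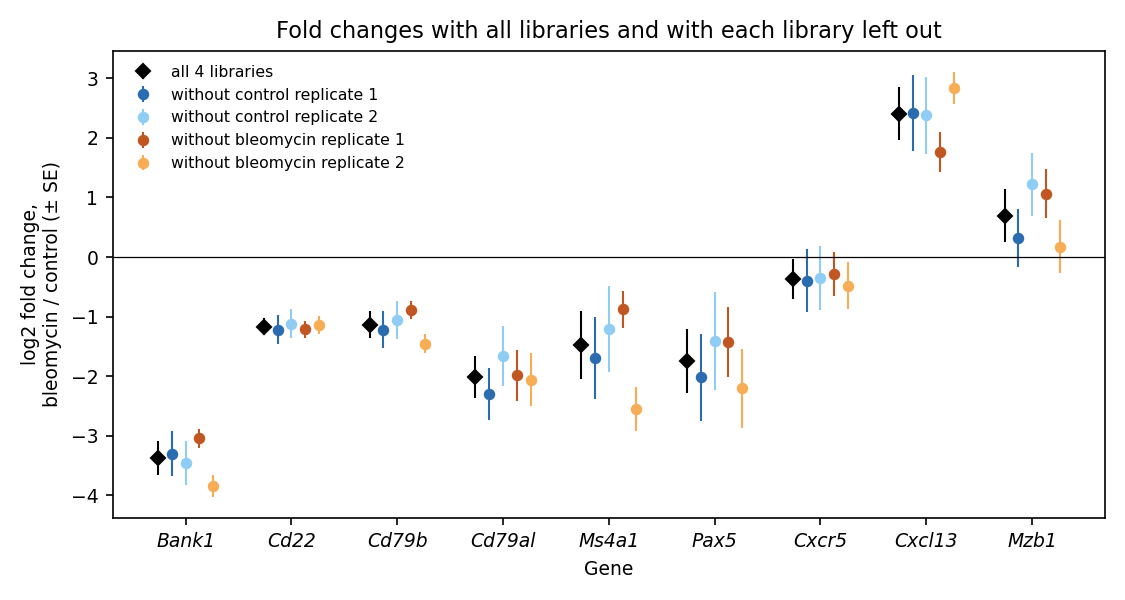
Points are log2 fold changes of bleomycin over control with SE bars, from all 4 libraries (black diamonds) and with each library left out (circles). Cd22 stayed between -1.22 and -1.12, while Ms4a1 ranged from -2.55 to -0.88 and Mzb1 from 0.17 to 1.22.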

How the data were processed

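Gene counts of 2 control and 2 bleomycin lung libraries were used as deposited, whole numbers without normalization, beside FPKM that the authors deposited. The submitters' processing notes name the build Rnor_6.0 and, as tools, DESeq2, HISAT2, fastp 0.18.0, CASAVA 1.8 and StringTie 1.3.1, without their settings. Per the labels' protocols, oligo(dT)-enriched mRNA was fragmented and randomly primed with no strand-marking step, so overlapping antisense genes were not told apart.

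Genes passing filterByExpr (minimum count 10) were scaled by TMM and tested with edgeR 4.0.16 (R 4.3.3) by the robust quasi-likelihood test, with group as the only term and Benjamini-Hochberg adjustment over all tested genes. SE is the unshrunk log2 change over the square root of F. Alternatives were DESeq2 1.42.0, RLE scaling, no scaling, no filter, no robust estimates, each library left out and a replicate block. Members and lists were chosen with earlier results of these data known. All members and, from each list, the 3 genes with the smallest p were named by rule; other genes were named after their values were seen, and a few genes of the lists are not reported here by name. The pattern search took genes whose mean log2 CPM reached 1, with 0.5 CPM added before the logarithm. Replicates differed by 22.6 (control) and 96.7 (bleomycin) times the sampling variance, so none was a copy. Counting intervals and floors cover counting error only. On simulated data of this comparison with 15573 genes, calls were made for 100% of genes changed 4-fold upward and 92% of those changed 4-fold downward. At 2-fold these shares were 60% and 46%, and 14.9% of all calls were genes left unchanged.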

Additional observations from a re-analysis of the deposited data

How the results depend on the processing

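With 2 rats a group, calls rested on having both controls: leaving out 1 library at a time gave 13 to 2569 higher and 8 to 2573 lower genes in all, against 1456 and 1169 with all libraries, and 0 to 1 higher and 0 to 4 lower members. A lone library of a group is then assumed to vary like the other group. Leaving out 1 library moved log2 changes from -3.84 to -3.04 for Bank1, from -1.22 to -1.12 for Cd22, from -1.45 to -0.89 for Cd79b, from -2.55 to -0.88 for Ms4a1 and from 1.76 to 2.83 for Cxcl13, and none of the 8 members changed direction under any alternative run.

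DESeq2 called 1809 lower genes in all and passed Ms4a1 at -1.48. With the replicate number as a block (replicate block) Ms4a1 passed at -1.65 (edgeR adjusted p = 0.0484), and no other member's call changed, giving 5 of 8 called against 14.3% of all genes. Same-numbered libraries did not deviate together (r = -0.0218 across genes). With a single replicate difference per group, this check cannot exclude that the numbers pair the rats. RLE scaling, no scaling, no filter and no robust estimates changed no member's call. Spib was lost without the filter (edgeR adjusted p = 0.0583).

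DESeq2 called 4 genes of the germinal centre list higher, 5 of B cell receptor signalling higher and 4 of follicular dendritic cells lower. The block gave 1 higher plasma cell gene, Ssr4, and 1 lower follicular dendritic cell gene, and Txndc5, Elf5 and Tnfrsf1a missed the threshold (edgeR adjusted p = 0.051, 0.0646 and 0.0612). RLE scaling and no scaling changed none of the list counts. Directions turned when 1 library was left out for Ighm (from -0.23 to 0.54), Jchain (from -0.30 to 0.89), Ccr7 (from -0.34 to 0.012) and the heart genes Myh7 (from -2.72 to 1.06), Mybpc3 (from -2.49 to 2.17) and Myl7 (from -2.53 to 2.73). The cause was not tested.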
